A study of Mus musculus with 6 samples.

Results

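The genes described here encode the nuclear subunits of the mitochondrial respiratory chain and ATP synthase. They are the rows of the expression table whose symbols begin with Ndufa, Ndufb, Ndufc, Ndufs or Ndufv and a number, Sdha to Sdhd, Uqcr, Cox4 to Cox8, or Atp5. That gave 85 of 23337 genes, of which 37 fell under complex I, 4 under complex II, 8 under complex III, 19 under complex IV and 17 under ATP synthase. RNA-seq libraries came from spleen endothelial cells of Stab1-/- mice (KO 2, KO 3 and KO 4) and of wild-type mice (WT 1, WT 3 and WT 4), with the strain given as C57BL/6 for both. Stab1 encodes stabilin-1, a scavenger receptor of sinusoidal endothelium. Spleens were digested with collagenase and cells positive for CD31 and negative for CD45 were sorted, per the labels' protocols. The labels give no age, sex or construction of the Stab1 allele, and nothing in them ties each library to a separate animal. The p-values here therefore speak of the spread among these 6 libraries.

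The respiratory chain passes electrons from NADH (complex I) or succinate (complex II) through ubiquinone to complex III, and through cytochrome c to complex IV, which reduces oxygen. Complexes I, III and IV pump protons across the inner mitochondrial membrane, and ATP synthase uses the returning protons to make ATP. Some catalytic subunits are encoded in mitochondrial DNA and were not analysed here, while the nuclear genes encode the other catalytic subunits and the many supernumerary subunits that surround them. Endothelial cells are known for drawing much of their ATP from glycolysis.

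The symbols do not match the complexes exactly. Cox4nb (now Emc8, a subunit of an endoplasmic reticulum membrane complex), Atp5s and Atp5sl (now Dmac2l and Dmac2) match the pattern but are not structural subunits. Ndufa4 and Ndufa4l2 carry complex I symbols, but Ndufa4 is known from biochemistry as a complex IV subunit and Ndufa4l2 is its paralog. Cyc1 (cytochrome c1 of complex III), Ndufab1 (a carrier protein within complex I) and Cycs (cytochrome c) lie outside the pattern. Cyc1 averaged 256 ± 17.5 RPKM (reads counted to the gene, scaled to its gene-model length and an effective library size) in KO libraries and 231 ± 7.98 in WT libraries (SD, n = 3 each). Counted reads over that effective size ran from 0.969 (WT 1) to 1.017 (KO 3). How the size was set is not given in the sources used here.

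Depth, recovered as reads counted to genes, was 40415775 (WT 1) to 51674998 (KO 3) reads per library. In KO 2, KO 3 and KO 4 the RPKM of Stab1 was 2.32, 2.62 and 2.49, against 21.6, 43.6 and 31.4 in WT 1, WT 3 and WT 4 (log2 fold change -3.40, limma adjusted p = 7.15e-05), so the targeted gene followed the labels. Pecam1, which encodes CD31, was at 329 to 359.8 RPKM in KO libraries and 273 to 326 in WT libraries, and Ptprc, which encodes CD45, was at most 0.0923 RPKM in KO libraries and at most 0.110 in WT libraries. All 11 endothelial markers listed were at levels that could be tested, while none of 10 B and T cell markers was, and those summed to 1.33 to 2.02 RPKM in KO libraries and 1.21 to 1.68 in WT libraries. Summed RPKM of 10 megakaryocyte and platelet markers was 64.6 to 80.5 in KO libraries and 94.1 to 259 in WT libraries, highest in WT 3. For 10 reticular and fibroblast markers it was 69.0 to 103 in KO libraries and 108 to 287 in WT libraries, highest in WT 1. Of the 8 tested, 3 had a positive log2 fold change (KO minus WT) and 5 a negative one. Among these, Cxcl13 was at 19.1, 14.2 and 14.6 RPKM in KO libraries, against 76.0, 67.6 and 43.7 in WT libraries (limma adjusted p = 0.00159). The sums thus owe much of their difference to this gene. The part of these other cells in the values below was not tested. In bulk libraries, fewer cells of a type and less RNA per cell cannot be told apart.

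Most of the genes were abundant. The 79 that reached 1 RPKM or more in 3 or more libraries, the filter for testing, had a median level of 175 RPKM, against 11.98 RPKM over all 11035 tested genes, and their median rank was the 95.7th percentile. Of the 85 genes, 61 averaged at least 100 RPKM over the 6 libraries. Together they made up 3.76%, 3.76% and 3.67% of all summed RPKM in KO 2, KO 3 and KO 4, against 3.73%, 3.29% and 3.69% in WT 1, WT 3 and WT 4. The share in WT 3 stood below those of the other 5 libraries.

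**Figure D1:**
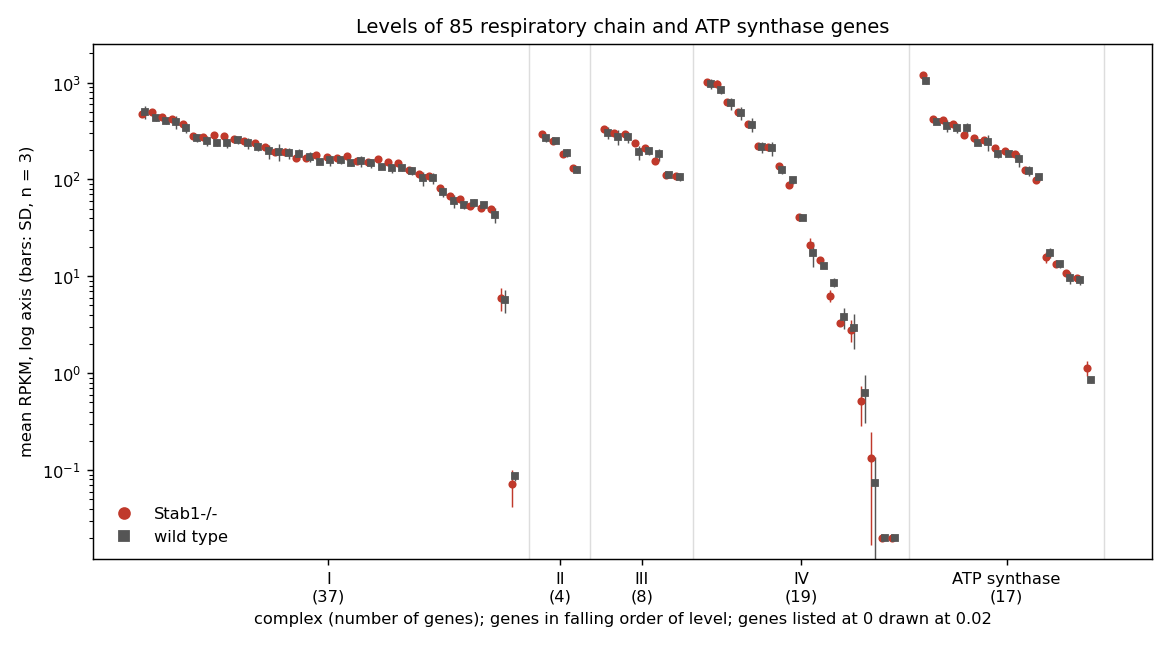
Mean RPKM (log axis, bars SD over 3 libraries) of the 85 genes, ordered by level within complexes I, II, III, IV and ATP synthase, with Stab1-/- as circles and wild type as squares. The genes of complexes II and III lie within a narrow band above 100 RPKM, and Ndufs5 lies alone below the other complex I genes. Complex IV and ATP synthase hold both the highest genes and a tail of low ones. That tail reaches 0 in complex IV and 0.993 RPKM (Atp5g2) in ATP synthase.

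The 5 complexes differed in how evenly their genes were expressed. All 4 complex II genes lay between 128 and 282 RPKM and all 8 complex III genes between 107 and 318 RPKM, as means over the 6 libraries. In complex I the tested genes ran from Ndufa4l2 at 5.80 RPKM to Ndufa4 at 485 RPKM, with a median of 165. Complex IV held both extremes of the electron transport genes, from Cox6a1 at 993 RPKM to Cox7b2 and Cox8c, which were listed at 0 in every library. In ATP synthase the beta subunit Atp5b, part of the catalytic head, was the highest of all 85 genes at 1123 RPKM. Among the other subunits of F1, the part that holds this head, Atp5a1 (alpha) averaged 384 RPKM, Atp5d (delta) 253, Atp5e (epsilon) 249 and Atp5c1 (gamma) 189.

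Several subunits come in isoforms encoded by separate genes, and in each set 1 gene carried most of the RNA. Cox4i1, the general isoform of subunit 4, was at 991, 1045 and 881 RPKM in KO libraries, against 910.2, 763 and 818 in WT libraries. Cox4i2, known as the isoform of lung and of hypoxia, averaged 2.82 ± 0.701 RPKM in KO libraries and 2.94 ± 1.15 in WT libraries (SD, n = 3 each). Cox6a1 was at 1008, 1058 and 976 RPKM in KO libraries, against 1055, 848 and 1012 in WT libraries. Its heart and muscle isoform Cox6a2 was at most 0.214 RPKM in KO libraries and at most 0.120 in WT libraries. Thus the general isoform stood far above its partner in every library, and in all 4 genes the genotypes overlapped.

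The other complex IV sets had the same order. Cox6b1 averaged 636 ± 5.76 RPKM in KO libraries and 608 ± 86.9 in WT libraries, while the testis isoform Cox6b2 averaged 3.31 ± 0.267 in KO libraries and 3.81 ± 0.948 in WT libraries. Cox8a averaged 375 ± 7.29 RPKM in KO libraries and 368 ± 62.5 in WT libraries, while Cox8b, known from heart and muscle in rodents, averaged 0.515 ± 0.230 in KO libraries and 0.629 ± 0.320 in WT libraries. Each general isoform was again far above its partner. Among the subunit 7a genes, Cox7a2 averaged 219 ± 1.16 RPKM in KO libraries and 214 ± 28.5 in WT libraries. Cox7a2l, a factor that joins complexes III and IV into supercomplexes, averaged 41.2 ± 0.613 in KO libraries and 39.8 ± 1.24 in WT libraries. Cox7a1, the heart and muscle isoform, was the highest of the minor isoforms. It was at 24.7, 16.7 and 21.7 RPKM in KO libraries, against 16.8, 12.8 and 22.8 in WT libraries, and the genotypes overlapped. The 6 striated muscle markers listed summed to 0.956 to 1.99 RPKM in KO libraries and 1.49 to 3.29 in WT libraries, and the 9 smooth muscle and pericyte markers to 347 to 463 in KO libraries and 341 to 578 in WT libraries. The part of these cells in the level of Cox7a1 was not tested. Ndufa4 averaged 476 ± 7.23 RPKM in KO libraries and 494 ± 72.6 in WT libraries, and Ndufa4l2 averaged 5.95 ± 1.60 in KO libraries and 5.65 ± 1.51 in WT libraries.

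Subunit c, which forms the rotating membrane ring of ATP synthase, is encoded by 3 genes whose mature protein is known to be the same while their import sequences differ. Atp5g3 (chromosome 2, 73908447 to 73912464, GRCm38) was at 429.8, 428 and 398 RPKM in KO libraries, against 386, 373 and 416 in WT libraries. Atp5g1 (chromosome 11, 96072793 to 96075694) was at 9.66, 10.04 and 8.94 RPKM in KO libraries, against 10.3, 8.82 and 8.40 in WT libraries. Atp5g2 (chromosome 15, 102662868 to 102671047) averaged 1.13 ± 0.197 RPKM in KO libraries and 0.854 ± 0.0595 in WT libraries and did not pass the filter. Atp5g3 therefore supplied nearly all the subunit c RNA counted, although the level of the other genes is uncertain because much of their sequence occurs elsewhere in the genome. The same 90 coding bases are shown for each, from the GENCODE M21 transcripts of GRCm38, with the 23 positions at which the 3 genes are not all alike in capitals.
Atp5g1: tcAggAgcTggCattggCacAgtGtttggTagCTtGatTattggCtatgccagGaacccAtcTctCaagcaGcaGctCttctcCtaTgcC
Atp5g2: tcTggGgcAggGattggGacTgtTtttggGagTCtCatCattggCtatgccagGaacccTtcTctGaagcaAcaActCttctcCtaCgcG
Atp5g3: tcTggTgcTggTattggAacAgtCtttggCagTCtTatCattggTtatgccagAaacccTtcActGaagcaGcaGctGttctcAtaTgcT
Over the closing stretch of the coding sequence that holds the mature subunit, Atp5g1 and Atp5g2 were 85.1% identical, Atp5g1 and Atp5g3 79.8% and Atp5g2 and Atp5g3 78.5%. Upstream of it, where the import sequence lies, identity was 31.1% to 39.4%. The sequences were aligned at the stop codon without gaps, and the whole coding sequences differ in length (411, 441 and 426 bases). Any inserted or missing bases would therefore lower the upstream values.

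Other genes also shared sequence with other loci. Reads that fit several places cannot be assigned, and how the authors' counting treated them is not given in the sources used here. Each gene's transcript was therefore cut into all 50-base words, and the share of words also found in transcripts of other loci was counted. Loci that overlap the gene itself were left out, so sequence shared with overlapping genes was not measured. By this measure 51 of the 85 genes shared none and 34 shared some, and 8 genes shared at least 40%. Those 8 were Atp5g2 (87.4%), Atp5l (68.5%), Atp5g1 (56.2%), Ndufa12 (53.8%), Atp5h (50.5%), Cox7c (48.2%), Uqcrb (43.2%) and Ndufs5 (41.2%). Their median level was 9.80 RPKM, against 185 RPKM for the 51 genes that shared none. Their levels were mixed, since Ndufa12, Atp5h and Uqcrb averaged 106 to 169 RPKM and the other 5 lay between 0.0786 and 10.2 RPKM. Of the genes outside the pattern, Ndufab1, with 31.2% of words shared, averaged 8.58 ± 0.583 RPKM in KO libraries and 8.22 ± 0.788 in WT libraries, and Cycs, with 28.5% shared, averaged 1.53 ± 0.281 RPKM in KO libraries and 1.70 ± 0.302 in WT libraries. Cyc1, with none shared, was above 200 RPKM in every library.

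**Figure D2:**
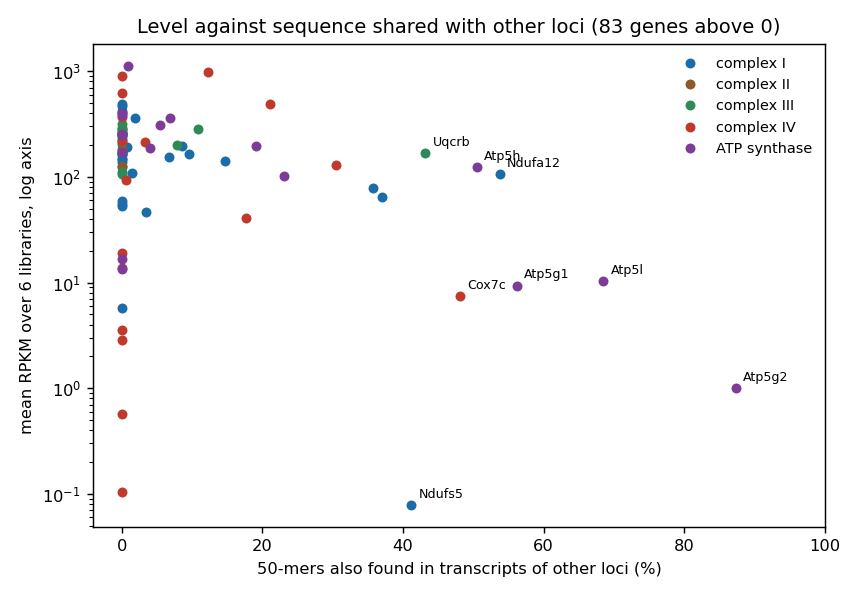
Mean RPKM over 6 libraries (log axis) against the percentage of a transcript's 50-base words found in transcripts of other loci, with points coloured by complex and the 8 genes with at least 40% shared named. Ndufs5, Atp5g2, Cox7c, Atp5g1 and Atp5l lie at 10.2 RPKM or below, while Uqcrb, Atp5h and Ndufa12 lie at 106 RPKM or above.

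Ndufs5 was the lowest of them. It encodes a supernumerary subunit of complex I (chromosome 4, 123712710 to 123718186) and had 2, 1 and 2 reads in KO 2, KO 3 and KO 4, and 2 reads in each WT library. The annotated processed pseudogene BC002163 (chromosome 16, 42955631 to 42955949) was identical to its coding sequence at 317 of 319 aligned bases (99.4%). BC002163 itself was at 3.09, 2.42 and 1.92 RPKM in KO libraries, against 2.46, 1.83 and 2.63 in WT libraries, which is below the average of every other gene of complex I. The 80-base stretch that holds both differences is shown, with the differing bases in capitals.
Ndufs5: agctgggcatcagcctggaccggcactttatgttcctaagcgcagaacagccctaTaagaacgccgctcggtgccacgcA
BC002163: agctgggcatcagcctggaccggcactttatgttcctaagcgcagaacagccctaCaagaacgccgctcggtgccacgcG
Atp5l, subunit g of the ATP synthase membrane part, was identical to the processed pseudogene Gm10221 (chromosome 5, 24581554 to 24581862) at 309 of 309 aligned coding bases. Whether shared reads set the counted levels of these genes was not tested.

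Loss of Stab1 was then set against wild type for each gene. None of the 79 tested genes was higher or lower in KO libraries by limma at a Benjamini-Hochberg adjusted p under 0.05, where 1.94% of all 11035 tested genes were called (0.671% higher and 1.27% lower). At an unadjusted limma p under 0.05 there were 6 genes, 5 higher and 1 lower in KO libraries, against 15.7% of all tested genes. The voom fit on recovered reads called 0 as well, where it called 221 of all 11035 tested genes. In the authors' deposited table, 0 of the 81 genes listed passed an adjusted p of 0.05, where 1.57% of its genes did, and the lowest adjusted p was 0.218 (Ndufv1). The 95% intervals bound what these libraries could hide: every tested gene's interval lay within 2-fold in either direction, and 74 lay within 1.5-fold. The 5 wider ones were Cox7a1, Cox4i2, Cox6b2, Cox7c and Uqcrc1.

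Log2 fold changes (KO minus WT, on the log2(RPKM + 0.5) scale) were positive for 64 genes and negative for 15, with a median of 0.095. Over all tested genes 54.3% were positive. The median was 0.026 over all tested genes and 0.091 over the 1949 genes of at least 50 RPKM. Of 14 genes of dissociation and early response (Fos and Egr1 among them), 12 were positive with a median of 0.20, and their summed RPKM was 6536 to 7699 in KO libraries and 6060 to 6767 in WT libraries. Of the 11 endothelial markers 9 were positive, with a median of 0.14. By limma none of either list was called, where 1.94% of all tested genes were. An unadjusted limma p under 0.05 was reached by 5 of the 14 and 2 of the 11, against 15.7% of all tested genes. The part of these lists in the difference was not tested. In 14 genes all KO libraries lay above all WT libraries, where 10.7% of tested genes did, and in 1 gene, Cox7c, all lay below, where 9.57% did. Counted in either direction, 19.0% of the 79 genes had groups that did not overlap, against 20.3% of all tested genes. The lean changed with the WT libraries used. Without WT 3 the median was 0.023, against 0.026 over all tested genes, with 43 of the 79 genes positive and 36 negative, and without WT 1 it was 0.16. With quantile normalization 45 were positive and 34 negative (median 0.036). When limma weighted libraries by their estimated quality, 17 of the 79 genes were called (12 higher, 5 lower), but so were 33.1% of all tested genes, with weights of 3.12 to 4.19 for KO 2 and WT 4 and below 1 for the other 4 libraries.

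**Figure D3:**
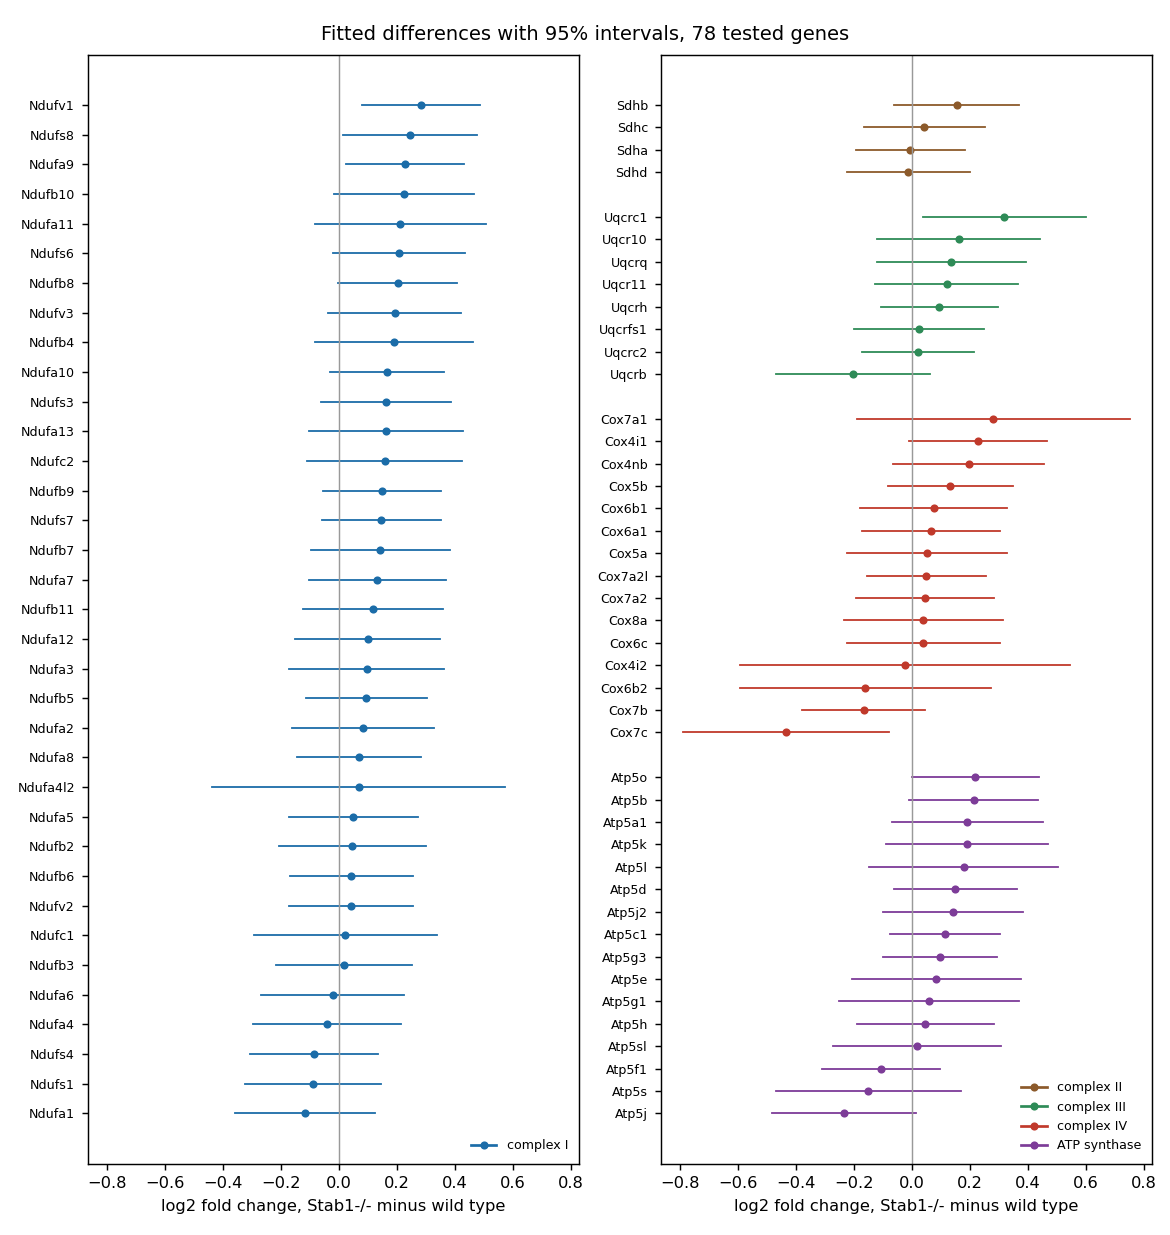
Fitted log2 fold change (Stab1-/- minus wild type, points) with 95% intervals (lines) for 78 of the 79 tested genes, complex I on the left and the other complexes on the right, ordered within each complex. Most points lie between -0.2 and 0.3, and 5 of the intervals drawn do not cross 0, of which Cox7c is the one below it.

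Complex I had a median log2 fold change of 0.12, with 31 genes positive and 5 negative. Without WT 3 its median was 0.024. Its summed RPKM was 7241, 7302 and 7028 in KO 2, KO 3 and KO 4, against 7279, 5902 and 6863 in WT 1, WT 3 and WT 4. The sum in WT 1 lay within the KO range, so the genotypes overlapped. The 7 nuclear core subunits, which carry the flavin and iron-sulfur centres and the quinone site, had a median of 0.16 and summed to 1126 ± 43.2 RPKM in KO libraries and 994 ± 50.9 in WT libraries (SD, n = 3 each). In Ndufv1, Ndufs3 and Ndufs8, among others, the KO libraries lay above the WT libraries without overlap. That held for 10 of the 36 tested complex I genes (27.8%), against 10.7% of all tested genes.

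Ndufv1, the flavoprotein that oxidizes NADH (chromosome 19, 4007499 to 4012755), had the smallest p of all 79 genes. It was at 171, 169.7 and 148 RPKM in KO libraries, against 131, 136 and 133 in WT libraries. All KO values lay above all WT values, with KO 4 the nearest to WT. The log2 fold change was 0.28 ± 0.091 (SE, limma adjusted p = 0.181). Ndufs8, an iron-sulfur subunit, was at 293, 303 and 257 RPKM in KO libraries, against 255, 216 and 249 in WT libraries, so KO 4 and WT 1 nearly met (0.24 ± 0.10, limma adjusted p = 0.289). Neither passed the adjusted threshold. The core subunit Ndufs1 ran the other way, at 50.7, 47.2 and 54.8 RPKM in KO libraries, against 49.0, 56.7 and 56.8 in WT libraries, with overlap.

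The supernumerary complex I genes had a median of 0.10 over 29 tested, including Ndufa4 and Ndufa4l2. Ndufa9, which lies beside the quinone module, was at 179, 176 and 164 RPKM in KO libraries, against 157, 137 and 149 in WT libraries, without overlap (0.23 ± 0.091, limma adjusted p = 0.263). Ndufb8, a membrane-arm subunit and the gene of complex I next in level after Ndufa4, was at 505, 506 and 477 RPKM in KO libraries, against 461, 396 and 438 in WT libraries, also without overlap (0.20 ± 0.092, limma adjusted p = 0.321). Ndufa1, a small membrane subunit needed for complex I assembly, was at 159, 168 and 175 RPKM in KO libraries, against 198, 157 and 193 in WT libraries, with WT 3 lowest of all 6.

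Complex II had 2 genes positive and 2 negative and a median of 0.019. Its summed RPKM was 861 ± 22.7 in KO libraries and 830.3 ± 43.3 in WT libraries. Sdha, the flavoprotein that oxidizes succinate, was at 245, 250.5 and 254 RPKM in KO libraries, against 250.2, 264 and 239 in WT libraries, with the KO values inside the WT range. Sdhb, the iron-sulfur subunit, was at 314, 303 and 274 RPKM in KO libraries, against 287, 246 and 267 in WT libraries, with overlap (0.16 ± 0.096, limma adjusted p = 0.452). The membrane anchor Sdhd averaged 184 ± 6.83 RPKM in KO libraries and 186 ± 17.2 in WT libraries. The other anchor, Sdhc, averaged 129.8 ± 3.58 RPKM in KO libraries and 126 ± 10.8 in WT libraries. Its log2 fold change was 0.043 ± 0.093 (limma adjusted p = 0.842), with a 95% interval of -0.17 to 0.25.

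Complex III had 7 genes positive and 1 negative (median 0.11). None of its 8 genes separated the genotypes without overlap, where 20.3% of all tested genes did. Uqcrc1, a core protein (chromosome 9, 108936648 to 108949641), had the greatest positive log2 fold change of the 79 genes, 0.32 ± 0.13 (limma adjusted p = 0.261). It was at 242, 246 and 218 RPKM in KO libraries, against 157, 221 and 193 in WT libraries, with WT 3 inside the KO range. Without WT 1, the lowest library, its log2 fold change was 0.19. The other core protein, Uqcrc2, averaged 112 ± 3.21 RPKM in KO libraries and 110.2 ± 5.54 in WT libraries, and the Rieske iron-sulfur protein Uqcrfs1 averaged 108 ± 4.43 in KO libraries and 106 ± 10.7 in WT libraries. Uqcrb, a small subunit beside cytochrome b, was at 149, 167 and 153 RPKM in KO libraries, against 197, 150.4 and 197 in WT libraries. WT 3 fell among the KO libraries there (-0.20 ± 0.12, limma adjusted p = 0.429).

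Complex IV had a median of 0.050 with 11 genes positive and 4 negative, and its 3 mitochondrially encoded catalytic subunits were not analysed here. Cox7c, a small membrane subunit (chromosome 13, 86044798 to 86046795), was the only gene of the 79 with all KO libraries below all WT libraries. It was at 7.21, 6.13 and 5.45 RPKM in KO libraries, against 8.97, 7.58 and 9.31 in WT libraries, with KO 2 and WT 3 close together. The log2 fold change was -0.43 ± 0.16 (limma adjusted p = 0.232), and 48.2% of its sequence words are shared with other loci. Cox4i1, the values of which are given above, differed by 0.23 ± 0.11 (limma adjusted p = 0.332) and overlapped through WT 1. Cox7a1 differed by 0.28 ± 0.21 (limma adjusted p = 0.535), with a 95% interval of -0.19 to 0.75. Cox6a1 differed by 0.067 ± 0.11 (limma adjusted p = 0.780). Cox7b was at 86.6, 88.9 and 86.6 RPKM in KO libraries, against 103, 88.4 and 103 in WT libraries, where WT 3 again lay among the KO libraries.

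ATP synthase had 13 genes positive and 3 negative and a median of 0.11. All 5 subunits of F1 were positive (median 0.15), and they summed to 2388, 2443 and 2163 RPKM in KO libraries, against 1989.7, 2076 and 2123 in WT libraries. The KO sums lay above the WT sums, with KO 4 and WT 4 close. Atp5b (chromosome 10, 128083307 to 128090388) was at 1246, 1271 and 1102 RPKM in KO libraries, against 967, 1078 and 1072 in WT libraries, without overlap (0.21 ± 0.099, limma adjusted p = 0.332). The genes of the peripheral stalk, which holds the head against rotation, were split, with 2 positive and 2 negative. Atp5o, the subunit at the top of the stalk, was at 215, 219 and 198 RPKM in KO libraries, against 189, 162 and 193 in WT libraries, without overlap (0.22 ± 0.098, limma adjusted p = 0.318). Atp5j (coupling factor 6) was at 278, 277 and 300.1 RPKM in KO libraries, against 375, 287 and 349 in WT libraries, so that WT 3 lay inside the KO range (-0.23 ± 0.11, limma adjusted p = 0.339). Of the membrane subunits, Atp5g3 differed by 0.097 ± 0.088 (limma adjusted p = 0.607).

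The genes also differed together between libraries of the same genotype. WT 3 was the lowest of the 6 libraries for 63 of the 79 genes (79.7%), against 17.5% of all tested genes, and WT 1 was the highest for 29. As deviations of log2(RPKM + 0.5) from each gene's mean over the 6 libraries, the 79 genes had medians of 0.071, 0.063 and 0.013 in KO 2, KO 3 and KO 4, against 0.086, -0.21 and -0.0068 in WT 1, WT 3 and WT 4. By complex, the median in WT 3 was -0.22 for complex I, -0.13 for complex II, -0.18 for complex III, -0.23 for complex IV and -0.12 for ATP synthase. The spread followed: the median coefficient of variation of the 79 genes was 4.74% in KO libraries and 11.0% in WT libraries, while over all genes of at least 50 RPKM it was 6.42% in KO libraries and 9.30% in WT libraries.

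Gene length moved with this pattern. The median gene model of the 79 genes was 692 bases, against 2729 over all tested genes. For the 32 genes under 600 bases the median deviation in WT 3 was -0.25, and it was -0.18 over the 267 other tested genes of that length. For the 6 genes of at least 2000 bases it was 0.080, and it was 0.085 over the 7440 other genes of that length. WT 1 ran the other way, with medians of 0.12 for the genes under 600 bases and -0.068 for those of at least 2000 bases. In WT 3, the 21 genes from 600 to under 1000 bases had a median of -0.23, against -0.17 over 648 other genes of that length. The 20 genes from 1000 to under 2000 bases had -0.12, against -0.085 over 2601 other genes. The genes thus sat low in WT 3 in each length group under 2000 bases, as did other genes of like length. In each of those groups their median was below that of the other genes. The part of length in the low values of WT 3 was not tested. Spearman's rho of the log2 fold change (KO minus WT) with length was 0.077 across 77 of the genes, and 0.28 without WT 3. Across 10109 tested genes it was -0.054, and 0.11 without WT 3.

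**Figure D4:**
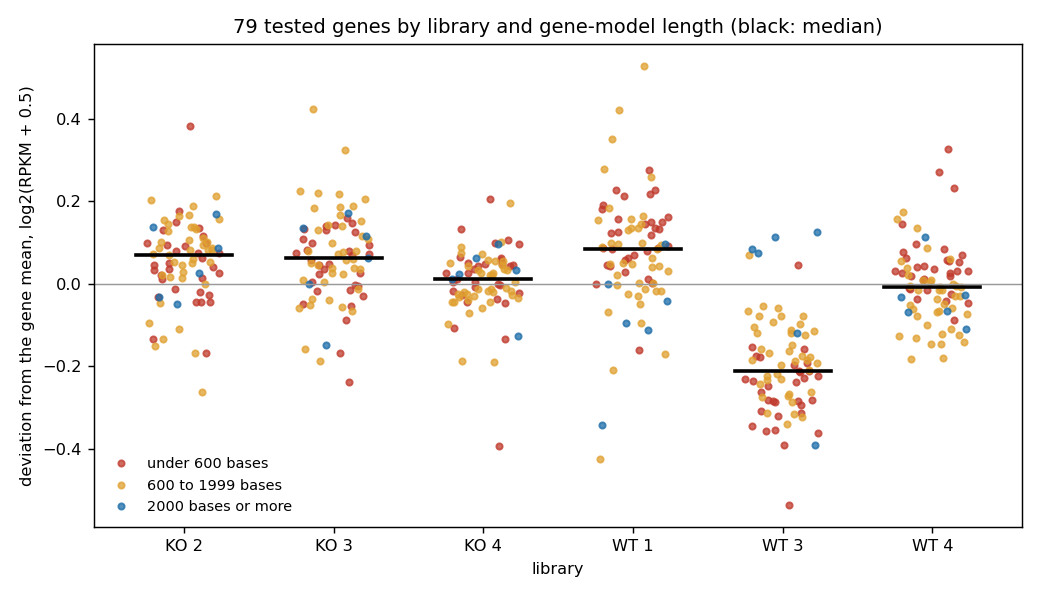
Deviation of each of the 79 tested genes from its mean over the 6 libraries, on the log2(RPKM + 0.5) scale, with points coloured by gene-model length and the median as a black line. The median in WT 3 is -0.21 and most of its points lie below 0. Those above 0 are Cox7c, Uqcrc1 and some of the genes of at least 2000 bases. The KO medians lie between 0.013 and 0.071.

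The size of the difference also went with base composition. For rho, the GC content was that of each gene's longest annotated transcript. Across 77 of the genes with an annotated value under the same symbol, log2 fold change and this GC content had a Spearman rho of 0.49. Across 10109 tested genes it was 0.46. These genes share 6 libraries, and the values are a description. Of the 26 genes of lowest GC content (39.0% to 50.4%), 15 were positive and 11 negative, with a median of 0.023. Of the 26 of highest GC content (55.1% to 61.1%), 24 were positive and 2 negative, with a median of 0.15. With trends on GC content and length removed from each library, rho was 0.027 across the 77 genes, 63 were positive and 14 negative, and the median was 0.074, against 0.013 over all genes fitted. None of the 77 genes was called in that fit either, where 187 of the 10109 genes fitted were.

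**Figure D5:**
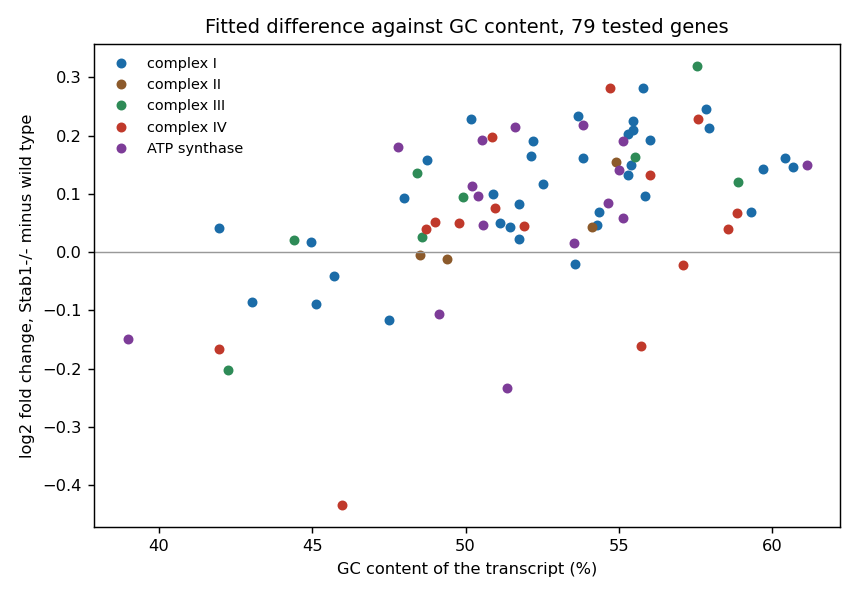
Fitted log2 fold change (Stab1-/- minus wild type) against transcript GC content (%) for the 79 tested genes, coloured by complex. The transcript is the coding one nearest in length to the gene model. Negative values lie mostly on the left, where the genes of lowest GC content had a median of 0.023, and those of highest GC content on the right had a median of 0.15.

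Promoters of respiratory genes are known to carry sites for NRF1, for the ETS factor GABP and for YY1, and the windows around the RefSeq start sites (GRCm38.p6) were searched on both strands for the letters of each. A window was found for 68 of the 85 genes, and the shares below are set against 8085 tested genes with a window. The NRF1 palindrome occurred in 5 (7.35%), against 2.47% of tested genes, and its core GCATGC, which lies inside it, in 13 (19.1%), against 11.5%. The ETS letters CCGGAAG occurred in 16 (23.5%), against 21.0%. The YY1 letters AAGATGGC occurred in 10 (14.7%), against 5.48%, of which 7 were in complex I and 3 in ATP synthase. The NRF1 genes were Atp5g2, Atp5k, Cox6a1, Ndufa11 and Uqcrc1, at levels from 0.993 to 993 RPKM. The windows of Cox6a1 (chr5:115349091-115349140, minus strand) and Ndufa11 (chr17:56717682-56717731, plus strand) are shown with the palindrome in capitals, which begins 162 bases before the start of Cox6a1 and 60 bases before that of Ndufa11.
Cox6a1: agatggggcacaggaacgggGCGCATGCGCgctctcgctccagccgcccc
Ndufa11: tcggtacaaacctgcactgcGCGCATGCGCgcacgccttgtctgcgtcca
A match says only that these letters stand in the window.

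Genes that build or feed the chain were counted in the same fit. Of 48 assembly factors, 45 were tested and none was called, where 1.94% of all tested genes were. An unadjusted limma p under 0.05 was reached by 4, against 15.7% of all tested genes, and the median log2 fold change was 0.063. The 3 of smallest p were Uqcc2 (listed as 2900010M23Rik), Ndufaf8 (listed as 1810043H04Rik) and Ecsit. Uqcc2, needed for complex III assembly, was at 209, 204 and 199 RPKM in KO libraries, against 179, 139 and 183 in WT libraries, without overlap (0.30 ± 0.11, limma adjusted p = 0.247). Ndufaf8, a complex I assembly factor, was at 71.1, 72.2 and 63.8 RPKM in KO libraries, against 61.7, 50.4 and 58.7 in WT libraries, again without overlap and with WT 3 lowest (0.28 ± 0.11, limma adjusted p = 0.257). Ecsit, another complex I assembly factor, was at 21.2, 20.7 and 18.8 RPKM in KO libraries, against 17.1, 15.9 and 16.8 in WT libraries (0.28 ± 0.11, limma adjusted p = 0.270). The fourth, Ndufaf4, also for complex I, was at 4.601, 3.85 and 6.26 RPKM in KO libraries, against 8.015, 5.87 and 7.19 in WT libraries, with overlap (-0.49 ± 0.20, limma adjusted p = 0.272). Of 14 genes for ubiquinone synthesis, cytochrome c, cytochrome c1 and Ndufab1, none was called (median 0.093), where 1.94% of all tested genes were. An unadjusted limma p under 0.05 was reached by 1, against 15.7% of all tested genes. That gene was Pdss1, a subunit of the enzyme that makes the ubiquinone tail, at 3.49, 3.22 and 2.95 RPKM in KO libraries, against 4.08, 3.96 and 5.06 in WT libraries, without overlap (-0.38 ± 0.17, limma adjusted p = 0.310).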

How the data were processed

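Libraries were made from sorted CD31-positive, CD45-negative cells with the SMART-Seq v4 kit and Nextera XT, per the labels' protocols, which do not mark strand. The authors deposited RPKM values in a table of 23337 genes, per the file headers, and their own log2 fold changes with p-values in another. The submitters' processing notes name the mm10 build and, as tools, limma, edgeR, Subread and STAR 2.5.2b. Settings are not given in the sources used here. Column names give the genotype and a number that the labels do not use, so columns were matched by genotype alone. RPKM are not counts, so the count test planned for deposited counts was not used.

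For all 17683 genes above 0, each RPKM was a whole multiple of the worth of 1 read (tolerance 0.001), which gave reads and depth, and gene-model length came out whole for 99.9% (tolerance 0.05 bases). The 11035 genes that reached 1 RPKM or more in 3 or more libraries were fitted as log2(RPKM + 0.5), which understates the change of low genes, in R 4.3.3 with limma 3.58.1, its intensity-trend option and Benjamini-Hochberg adjustment over all of them (threshold 0.05). The fit was tested on simulated data. GC content and 50-base words came from GENCODE M21 transcripts of GRCm38, and coordinates and promoter windows from RefSeq GRCm38.p6. Alternatives were voom on recovered reads, weights for library quality, robust variances, another scaling, pseudocount or filter, trends on GC and length removed (loess span 0.3), each library left out and a block on the number in the column names. Fold changes and tests are given for only some of the genes of greatest difference, of highest and lowest level in each complex and of the isoform sets. After values were seen, further genes of small p were added. The values of 1 gene are not reported here. The genes and lists were chosen with earlier results of these data known.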

Additional observations from a re-analysis of the deposited data

How the results depend on the processing

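Counts of genes called over all 11035 tested were 77 with no filter on low values, 3653 with library quality weights, and 56 to 418 with 1 library left out (56 without KO 3, 418 without KO 4), against 214. With quality weights the called subunit genes numbered 12 higher and 5 lower in KO libraries, and in every other setting tried there were 0. Leaving out 1 library gave medians of 0.024 to 0.19 for complex I, 0.0057 to 0.080 for complex II, 0.020 to 0.16 for complex III, -0.059 to 0.13 for complex IV, 0.052 to 0.14 for ATP synthase and 0.023 to 0.16 for all subunits, where every lowest value came without WT 3. Quantile normalization gave 0.054 for complex I, -0.045 for complex II, 0.024 for complex III and -0.0094 for complex IV. With GC and length trends removed, complex II was at -0.011 and complex IV at 0.0068. Quantile normalization also turned Sdhc (-0.013) and Atp5g3 (-0.0059), and leaving out WT 3 turned Sdhc (-0.021, against up to 0.10 with another library left out) and Cox6a1 (-0.028, against up to 0.13). The cause of these changes was not tested. Assigning genes by known composition, or keeping those with under 5% of words shared, both chosen after seeing the data, moved no median beyond the spread between libraries. The column names share the numbers 3 and 4 between genotypes, but these are not the labels' replicate numbers, and nothing in the labels pairs the libraries. Deviations from the group means correlated at r = 0.19 across genes for KO 3 with WT 3 and for KO 4 with WT 4, and at -0.16 to 0.094 for the other combinations. With this number as a replicate block, also chosen after seeing the data, only those 4 libraries bear on the difference, and 355 genes were called, the complex III median was 0.16, and 69 of 79 subunit genes were positive. Genes of a few reads, such as Ndufs5, had too few to compare the genotypes, and the cause of its low count was not tested.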

Other observations

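Of 17 genes of the tricarboxylic acid cycle and pyruvate dehydrogenase, which supply NADH and succinate to the chain, 0 were called higher and 1 lower by limma, with 2 at an unadjusted p under 0.05 and a median log2 fold change of 0.12, where 1.94% of all tested genes were called and 15.7% had an unadjusted p under 0.05. The called gene was Pdhb, a subunit of pyruvate dehydrogenase, at 49.0, 52.8 and 49.0 RPKM in KO libraries, against 67.4, 69.0 and 69.2 in WT libraries, without overlap (-0.44 ± 0.089, limma adjusted p = 0.0364). The call was lost with no filter on low values, in voom, with GC and length trends removed, with a replicate block and with any 1 library left out. Over 17 alternatives the limma adjusted p ran from 0.000802 to 0.196, while the log2 fold change stayed between -0.50 and -0.42. Sucla2, a succinyl-CoA synthetase subunit named after its values were seen, was at 55.3, 44.7 and 68.4 RPKM in KO libraries, against 84.1, 69.8 and 86.0 in WT libraries, without overlap (-0.52 ± 0.15, limma adjusted p = 0.144).

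Of 14 regulators of mitochondrial biogenesis, 12 were tested and none was called by limma (median 0.037), where 1.94% of all tested genes were. An unadjusted limma p under 0.05 was reached by 1, against 15.7% of all tested genes. Polrmt, the mitochondrial RNA polymerase, was at 13.2, 13.99 and 11.5 RPKM in KO libraries, against 7.99, 12.1 and 8.16 in WT libraries, with WT 3 inside the KO range (0.45 ± 0.18, limma adjusted p = 0.257). The coactivators Ppargc1a and Ppargc1b were below the filter, at 0.0660 and 0.0709 RPKM on average in KO libraries, against 0.0741 and 0.213 in WT libraries. Nrf1 averaged 10.6 ± 0.933 RPKM in KO libraries and 10.03 ± 1.26 in WT libraries, Gabpa 7.71 ± 1.89 in KO libraries and 8.41 ± 1.46 in WT libraries, and Tfam, the packaging factor of mitochondrial DNA, 8.36 ± 0.434 in KO libraries and 9.53 ± 0.442 in WT libraries. Of 12 genes of the outer membrane and protein import, none was called (median 0.037), where 1.94% of all tested genes were. None of them had an unadjusted limma p under 0.05, where 15.7% of all tested genes did.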
